A study of Mus musculus with 19 samples.

Results

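The 5 transcripts described here are those whose share of FMRP CLIP tags was lower in the 5 min control libraries than in the 30 min control libraries. They were chosen by the contrast of these 8 control libraries, at an adjusted p under 0.05 in edgeR's quasi-likelihood test fitted over the 16 Cre-positive libraries together, whose filter, scaling and spread also draw on the opto libraries. They came out of 2871 transcripts with enough tags to be tested and 49932 transcripts listed in any of the 19 libraries. They are ENSMUST00000173672, ENSMUST00000185789, ENSMUST00000146701, ENSMUST00000093902 and ENSMUST00000131035. The files name transcripts by Ensembl ID, and the gene table at hand (assembly GRCm38.p6) matched 0 of the IDs, so gene names, functions, positions and sequences are not given here. For the same reason the tissue label could not be checked against marker genes.

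FMRP is an RNA-binding protein whose loss causes fragile X syndrome. It binds many long mRNAs of neurons, largely along their coding sequence, and is known as a repressor of their translation that acts together with ribosomes. In hippocampal CA1 pyramidal neurons it is studied for its part in synaptic plasticity that depends on new protein synthesis. In CLIP, RNA in direct contact with a protein is bound to it covalently by ultraviolet light, purified with it in fragments and read by sequencing, each fragment as a tag. A transcript's share of the tags of a library therefore moves with the amount of the transcript as well as with its binding, and the tags alone cannot tell these apart. For the total of tags of a library, fewer FMRP-tagged cells and less bound RNA per cell cannot be told apart either.

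All libraries came from the CA1 region of acute mouse hippocampal slices, lysed with cycloheximide, which stalls ribosomes. Every sample carries the genotype label Camk2a-Cre x Fmr1 cTag, a design in which Cre recombinase, driven by the promoter of the excitatory-neuron gene Camk2a, switches on a tag on FMRP, so the purification draws on Cre-expressing cells. The opto libraries (treatment label AAV-ChR2, a viral vector for the light-gated channel channelrhodopsin-2) and the control libraries (AAV-Control) were made 5 min and 30 min after activation, with 4 libraries in each of these 4 groups. A further 3 libraries, labelled noCre by title and treatment although their genotype and cell type labels read as Cre-positive, hold the background of the purification. Animal age and whether replicates came from separate animals are not stated in the labels, so the p-values measure the spread between these libraries, which may in part be technical.

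The 16 Cre-positive libraries held 20456 to 341445 tags each. Tag totals were lowest in opto at 30 min, 20456 to 121972, against 84614 to 256727 in opto at 5 min, 81588 to 192471 in the 30 min controls and 40173 to 341445 in the 5 min controls. The noCre libraries held 887, 34 and 5557 tags. The labels of all 5 min libraries, and of no other library, call their files new. In any comparison of 5 min with 30 min, time therefore cannot be told apart from deposit.

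The 5 transcripts carried 4 separate patterns of counts. ENSMUST00000093902 had 215 tags in all and ENSMUST00000131035 had 218, and their counts were equal in 12 of the 16 Cre-positive libraries. In the other 4 libraries they differed by at most 2 tags, with ENSMUST00000131035 higher in 3 and ENSMUST00000093902 higher in 1. Their summed difference was 5 tags, or 1.15% of the tags of both. How tags were assigned to transcripts that overlap or resemble each other is not given in the sources used here, so this pair is counted once wherever members are counted as separate evidence. Such pairs are common in these files. Of the 2871 tested transcripts, 992 (34.6%) had another whose counts over the Cre-positive libraries differed from theirs by at most 2% of their joint tags. The other 3 members had none: their nearest transcripts differed from them by 15.96% (ENSMUST00000173672), 11.7% (ENSMUST00000185789) and 10.7% (ENSMUST00000146701).

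**Figure D1:**
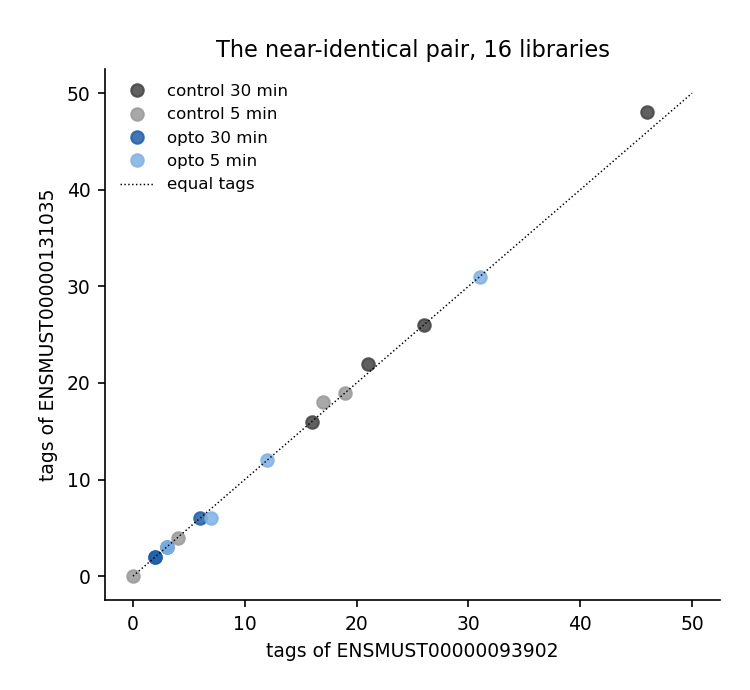
Tags of ENSMUST00000131035 (vertical axis) against tags of ENSMUST00000093902 (horizontal axis) in the 16 Cre-positive libraries, 1 point per library, coloured by group; some points lie on top of each other. The dotted line marks equal tags, and no point lies more than 2 tags from it.

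The values that chose the members are given first, as a description. ENSMUST00000173672 had 24, 2, 6 and 14 tags in replicates 1 to 4 of the 5 min controls and 45, 61, 85 and 69 in the 30 min controls. In tags per 1000000 (CPM, on the scaled totals of the tested transcripts) these were 101, 75.6, 81.9 and 98.7 at 5 min and 854, 474, 936 and 569 at 30 min. All 4 libraries at 5 min lay within a narrow band far below the lowest 30 min library. The means were 89.4 ± 12.6 and 708 ± 222 CPM (SD, n = 4 each), 7.92-fold apart, and the fitted log2 fold change of 5 min over 30 min was -2.85 (SE 0.34), the lowest of the 2871.

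ENSMUST00000185789 had 88.8, 75.6, 54.6 and 155 CPM in the 5 min controls, on 2 to 22 tags, and 626, 357, 418 and 520 CPM in the 30 min controls, on 33 to 63 tags. The groups did not overlap, and their means, 93.5 ± 43.4 and 480 ± 118 CPM (SD, n = 4 each), were 5.14-fold apart, with a log2 fold change of -2.19 (SE 0.40). ENSMUST00000146701 had 182, 378, 205 and 247 CPM in the 5 min controls, on 10 to 43 tags, and 759, 544, 683 and 627 CPM in the 30 min controls, on 40 to 76 tags. Its groups also lay apart, and its highest 5 min library, replicate 2, was the shallowest of that group. The means were 253 ± 87.6 and 653 ± 90.9 CPM (SD, n = 4 each), 2.58-fold apart, with a log2 fold change of -1.51 (SE 0.28).

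ENSMUST00000093902 had 17, 0, 4 and 19 tags in the 5 min controls and 16, 26, 21 and 46 in the 30 min controls, or 71.9, 0, 54.6 and 134 CPM against 304, 202, 231 and 380 CPM. The 0 of replicate 2, a library of 40173 tags, limits the share there to at most 0.00747%. The means were 65.1 ± 55.2 and 279 ± 79.4 CPM (SD, n = 4 each), 4.29-fold apart, with a log2 fold change of -1.74 (SE 0.38). For ENSMUST00000131035 the means were 66.2 ± 55.4 and 286 ± 84.4 CPM (SD, n = 4 each), 4.32-fold apart, with a log2 fold change of -1.74 (SE 0.38). This pair had the fewest tags and the widest relative spread among the 5 min controls, with an SD of 84.8% and 83.7% of the mean against 14.1% for ENSMUST00000173672. Counting error was not taken out of these SDs.

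**Figure D2:**
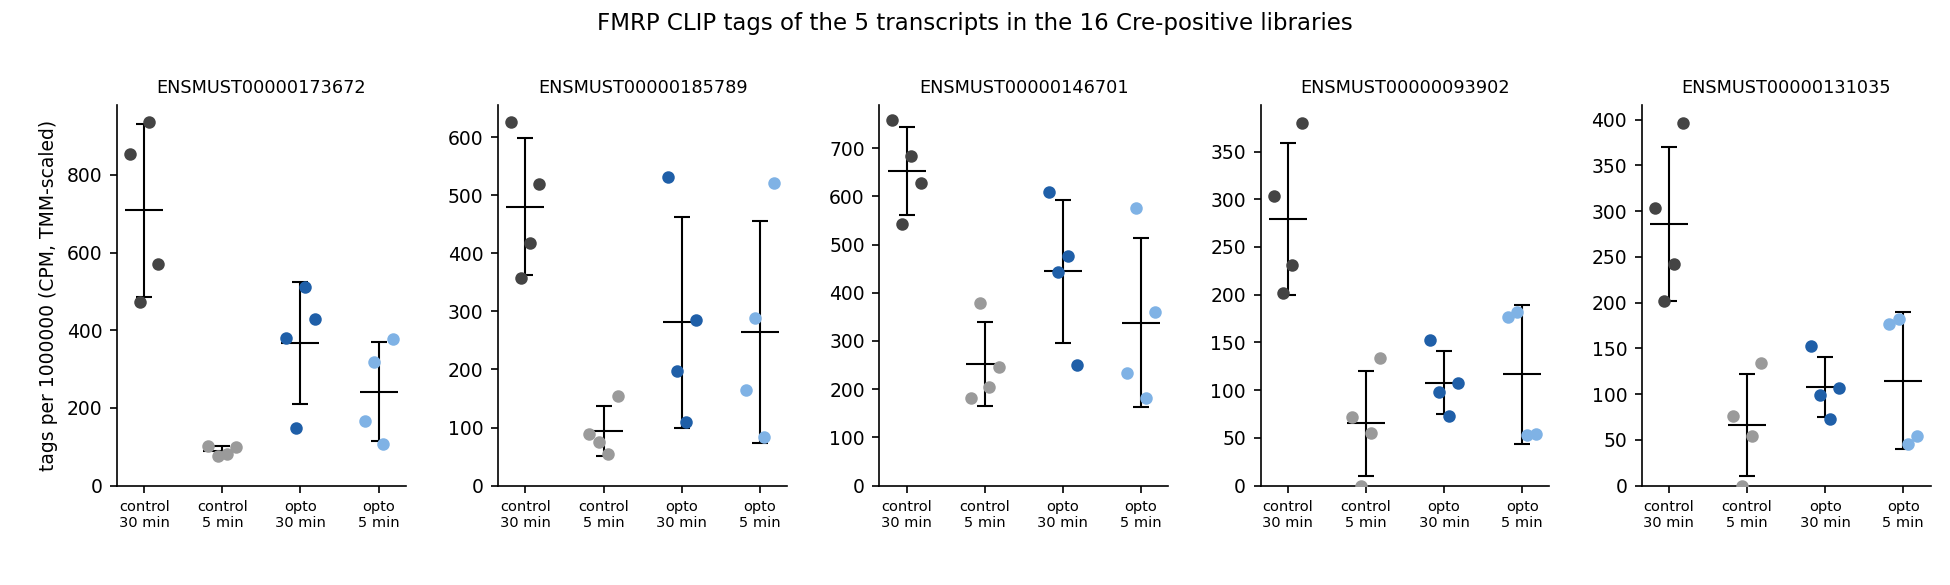
Tags per 1000000 (CPM, TMM-scaled, vertical axis from 0) of each transcript in the 4 control and 4 opto libraries of each time; points are libraries, horizontal marks the mean and bars 1 SD (n = 4). In each panel the 30 min controls lie above all 5 min controls, and the opto groups of the 2 times overlap. The transcripts were chosen by edgeR's test between these 2 control groups.

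All 5 members were lower at 5 min, as the choice requires, and they are the whole of the transcripts lower at 5 min at this threshold (5 of 2871, 0.174%). In edgeR's test 0 were higher, with 112 higher at an unadjusted p under 0.05. The threshold passed between close values. The pair lay just inside, each at an adjusted p of 0.0455 in edgeR's quasi-likelihood test, and the first transcript outside was ENSMUST00000189941 at 0.0820, with 579 CPM in the 5 min controls and 1248 in the 30 min controls. How many of the 5 kept their place depended on the processing and on single control libraries. With DESeq2 size factors, with library totals only or in DESeq2, 3 of the 5 were called, without the pair. With no filter beyond 1 tag 2 were, with ENSMUST00000146701 at an adjusted p of 0.0535 in edgeR's test. Without replicate 1 or without replicate 3 of the 5 min controls, 1 of the 5 was called, ENSMUST00000173672, and the adjusted p in edgeR's test was 0.102 and 0.0716 for ENSMUST00000185789 and 0.170 and 0.0748 for ENSMUST00000146701. Without replicate 2 of the 5 min controls, or replicate 1, 3 or 4 of the 30 min controls, 3 of the 5 were called and the pair was lost. The adjusted p of the pair ran up to 0.361 over all settings, without replicate 4 of the 30 min controls in edgeR's test. Every member stayed lower at 5 min under each setting that gave it a value.

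Whether the activated libraries follow this shift was examined in the 8 opto libraries. The contrast that chose the members did not use their group means, but the filter, scaling and spread of the fit are shared. In a fit of the 8 control libraries alone 18 of 3095 transcripts were called, these 5 among them. ENSMUST00000173672 had 165, 319, 107 and 378 CPM in opto at 5 min, on 29, 21, 14 and 21 tags, and 380, 148, 512 and 428 CPM in opto at 30 min, on 5, 3, 42 and 12 tags. The groups overlapped: replicate 2 at 30 min lay below 3 of the 5 min libraries. The means were 242 ± 127 and 367 ± 156 CPM (SD, n = 4 each), in the same order as in the controls but 1.52-fold apart. The log2 fold change of 5 min over 30 min was -0.92 (SE 0.37, 95% interval -1.67 to -0.17), with an unadjusted p of 0.0178 and an adjusted p of 0.176 in edgeR's quasi-likelihood test, so it did not pass. In limma's voom test with quality weights it did, with a log2 fold change of -1.26 and an adjusted p of 0.0443. Over all 17 alternatives the adjusted p ran from 0.0443 to 0.812, and the change was negative in all 17.

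ENSMUST00000146701 had 233, 577, 182 and 360 CPM in opto at 5 min, on 20 to 41 tags, and 608, 443, 476 and 250 CPM in opto at 30 min, on 7 to 39 tags. Both groups spread over the same range, and the highest 5 min library lay above 3 of the 30 min libraries. The means were 338 ± 176 and 444 ± 148 CPM (SD, n = 4 each), and the log2 fold change was -0.47 (SE 0.33, 95% interval -1.15 to 0.20, adjusted p = 0.509 in edgeR's test), which did not pass. The fitted change was below 0 in all 17 alternatives, and was -0.087 with library depth as a covariate.

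ENSMUST00000185789 had 165, 288, 83.7 and 522 CPM in opto at 5 min, on 29, 19, 11 and 29 tags, and 532, 197, 110 and 285 CPM in opto at 30 min, on 7, 4, 9 and 8 tags. Each opto group held libraries within the range of the 5 min controls and libraries within that of the 30 min controls. The means, 265 ± 191 and 281 ± 182 CPM (SD, n = 4 each), were 1.06-fold apart, and the log2 fold change was 0.10 (SE 0.50, 95% interval -0.92 to 1.12, adjusted p = 0.964 in edgeR's test). Its sign turned in 4 of 17 alternatives, and it was 0.84 with library depth as a covariate, so no direction was resolved. The 5 min mean is the lower one while the fitted change, which weighs libraries by their depth, is above 0.

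ENSMUST00000093902 had 176, 182, 53.2 and 54.0 CPM in opto at 5 min, on 31, 12, 7 and 3 tags, and 152, 98.5, 73.2 and 107 CPM in opto at 30 min, on 2, 2, 6 and 3 tags. Replicates 1 and 2 at 5 min lay above every 30 min library and replicates 3 and 4 below every one. The means were 116 ± 72.6 and 108 ± 32.9 CPM (SD, n = 4 each), with a log2 fold change of 0.38 (SE 0.56, 95% interval -0.76 to 1.53, adjusted p = 0.788 in edgeR's test). ENSMUST00000131035 gave 0.36 (SE 0.57, 95% interval -0.81 to 1.53, adjusted p = 0.810 in edgeR's test) on nearly the same tags.

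Of the 5 members, 0 passed an adjusted p of 0.05 between opto at 5 min and opto at 30 min, where 7 of 2871 tested transcripts did (0.244%). The number over all transcripts was 0 without opto 30 min replicate 4 or opto 5 min replicate 1 and 55 without opto 5 min replicate 4, and 0 of the 5 members were called without any single library. At an unadjusted p under 0.05, 1 of the 5 was lower at 5 min, beside 208 of 2871 (7.24%). With the near-identical pair counted once, as ENSMUST00000093902, the fitted changes were below 0 for 2 of 4 members and above 0 for 2, against 48.1% below 0 over all tested transcripts. Their median was -0.19 on the log2 scale, and 0.10 with the pair counted as 2 members, against 0.02 over all, so its sign depends on that count. The activated libraries thus gave no common direction for these transcripts, and the intervals of the members leave room for a change either way, except that of ENSMUST00000173672, which lies below 0 before adjustment. The control values are those that chose the members, so a fit of the difference between the opto and the control changes is no independent test of them. In edgeR's test of this difference 0 of the 5 members passed an adjusted p of 0.05, where 1 of 2871 transcripts did. At an unadjusted p under 0.05 all 5 did, beside 218 of 2871. The choice of the members favours this count in advance, so it is no result about them.

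**Figure D3:**
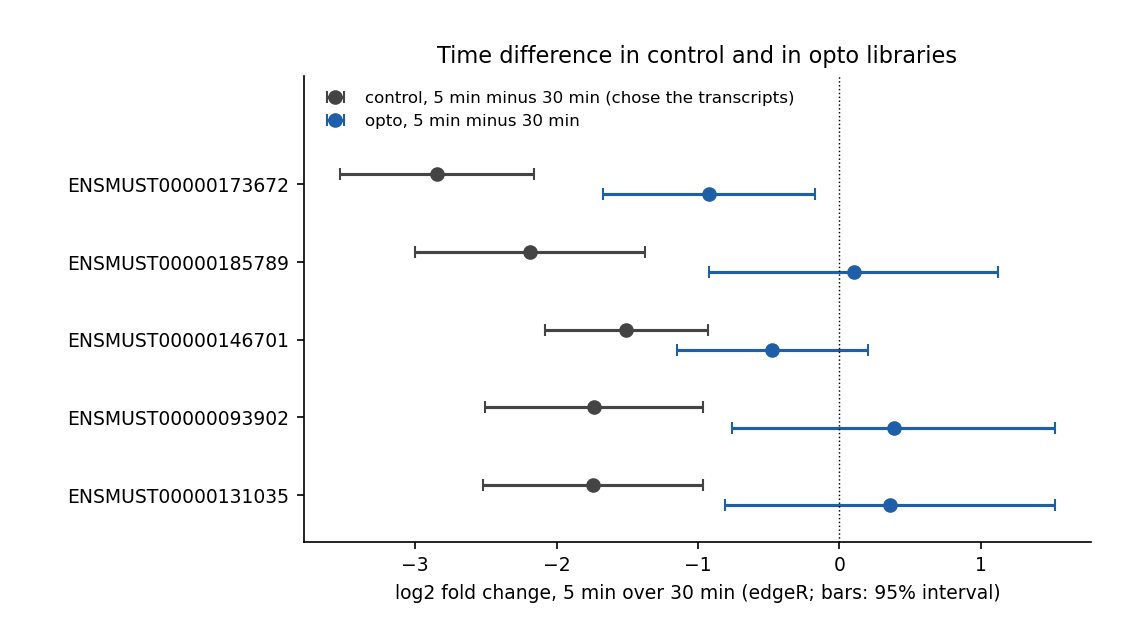
Fitted log2 fold change of 5 min over 30 min (horizontal axis) for each transcript in the control libraries, grey, and the opto libraries, blue; bars are 95% intervals (edgeR, not adjusted for the number of transcripts) and the dotted line marks no change. The control values lie between -2.85 and -1.51 and chose the transcripts, and the opto values lie between -0.92 and 0.38.

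The first transcript outside the threshold, ENSMUST00000189941, had 645 CPM in opto at 5 min and 1543 in opto at 30 min, a log2 fold change of -1.19 (SE 0.29, adjusted p = 0.0654 in edgeR's test), about the size of its change in the controls, -1.14 (SE 0.27), and it did not pass in either. The next outside, ENSMUST00000082408, had a control change of -1.12 (SE 0.26, adjusted p = 0.0820 in edgeR's test) and an opto change of -1.17 (SE 0.29, adjusted p = 0.0654 in edgeR's test). Its means were 603 and 1288 CPM in the controls at 5 and 30 min and 675 and 1582 in opto. These lay close to the means of ENSMUST00000189941, so the 2 are not given as separate evidence. ENSMUST00000143272, also outside, had a control change of -1.50 (SE 0.37, adjusted p = 0.119 in edgeR's test) and an opto change of -0.14 (SE 0.45, adjusted p = 0.935 in edgeR's test). ENSMUST00000082408 and ENSMUST00000143272 were named after their values were seen.

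Set against the controls of the same time, the opto means of all 5 members lay inside the range that the 2 control groups span. At 30 min the opto libraries were lower for 5 of 5 members, with the near-identical pair counted as 2 members. They were lower in 4 of 4 same-numbered pairs of libraries for each. The log2 fold changes of opto over control at 30 min were -0.76 (SE 0.33) for ENSMUST00000173672, -1.14 (SE 0.46) for ENSMUST00000185789, -0.57 (SE 0.31) for ENSMUST00000146701, -1.57 (SE 0.50) for ENSMUST00000093902 and -1.61 (SE 0.51) for ENSMUST00000131035. For the pair every opto library at 30 min lay below every control, on 2 to 6 tags in each opto library. For the other 3 members the groups overlapped. How many of all tested transcripts lay apart in this way, or had every same-numbered pair in 1 direction, was not counted. These counts are therefore no result about the members. Over all tested transcripts 52.3% were below 0 in this comparison.

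At 5 min the opto libraries were higher for 5 of 5 members, again with the near-identical pair counted as 2 members. The log2 fold changes of opto over control at 5 min were 1.17 (SE 0.38) for ENSMUST00000173672, 1.15 (SE 0.43) for ENSMUST00000185789, 0.46 (SE 0.30) for ENSMUST00000146701, 0.55 (SE 0.42) for ENSMUST00000093902 and 0.49 (SE 0.43) for ENSMUST00000131035. In same-numbered pairs opto was higher in 4 of 4, 4 of 4, 3 of 4, 2 of 4 and 2 of 4. Only for ENSMUST00000173672 did every opto library lie above every control, 107 CPM at the lowest against 101 at the highest. The share of all tested transcripts with groups apart, or with such pair counts, was not counted at 5 min either. Over all tested transcripts 50.2% were below 0 in this comparison. Both comparisons use the control libraries that chose the members for being high at 30 min and low at 5 min, so these directions are given as values with no test.

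Among the opto libraries at 5 min the members did not move as a block. ENSMUST00000173672, ENSMUST00000185789 and ENSMUST00000146701 were higher in replicates 2 and 4, the shallower libraries with 98257 and 84614 tags, than in replicates 1 and 3, with 256727 and 194181. The pair was high in replicates 1 and 2 instead. At 30 min the shallowest opto library, replicate 1 with 20456 tags, had the highest value of its group for ENSMUST00000185789, ENSMUST00000146701 and the pair, on 7, 8 and 2 tags. With library depth as a covariate in the fit, the opto change of 5 min over 30 min was -0.74 (SE 0.41) for ENSMUST00000173672, 0.84 (SE 0.50) for ENSMUST00000185789, -0.087 (SE 0.34) for ENSMUST00000146701 and 0.22 (SE 0.64) for ENSMUST00000093902 on the log2 scale. In that fit 0 of the 5 members passed between the opto times, and 0 of 2871 transcripts did in edgeR's test (296 at an unadjusted p under 0.05).

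Over the 16 Cre-positive libraries the log2 CPM of ENSMUST00000173672, ENSMUST00000185789 and ENSMUST00000146701 had Pearson correlations of 0.82, 0.78 and 0.74 with each other, which the shared choice on the control groups feeds. After each group's mean was removed, the correlations were 0.51 between ENSMUST00000173672 and ENSMUST00000185789, 0.39 between ENSMUST00000173672 and ENSMUST00000146701, and 0.44 between ENSMUST00000185789 and ENSMUST00000146701. ENSMUST00000093902 had 0.13, 0.34 and -0.05 with these 3 in the same order. The points share libraries and scaling factors, so these are descriptions. The non-members with the highest mean correlation with the 5 over the same 16 libraries were ENSMUST00000127786 (0.70) and ENSMUST00000189581 (0.68). ENSMUST00000127786 had 89.3 and 459 CPM in the controls at 5 and 30 min, close to ENSMUST00000185789, and 287 and 466 CPM in opto at 5 and 30 min. Its control change was -2.03 on the log2 scale and did not pass (adjusted p = 0.145 in edgeR's test). ENSMUST00000189581 had 203 and 382 CPM in the controls and 243 and 307 CPM in opto at 5 and 30 min. Its control change was -0.89 (adjusted p = 0.256 in edgeR's test).

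The noCre background held few tags of these transcripts. ENSMUST00000173672, ENSMUST00000093902 and ENSMUST00000131035 had 0 of the 6478 pooled noCre tags, a depth at which a share of up to 46.3 per 100000 can give no tag. At their pooled Cre-positive shares of 21.2, 10.1 and 10.2 per 100000, that many tags would hold 1.37, 0.652 and 0.661 of theirs, so a background share equal to that of the purification was not detectable at this depth. ENSMUST00000185789 had 1 tag in noCre replicate 1 and 1 in replicate 3, or 30.9 per 100000 of the pool (95% Wilson interval 8.47 to 113). Without noCre replicate 1 the share was 17.9 and without replicate 3 it was 109, on 1 tag each. The interval of the pool spans most of its Cre-positive libraries, which ran from 3.67 to 40.5 per 100000.

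ENSMUST00000146701 had 7 noCre tags, all in replicate 3, or 108 per 100000 of the pool (95% Wilson interval 52.4 to 223), while its Cre-positive libraries ran from 12.4 to 49.0 per 100000 with a median of 27.8. The lower end of the interval lay above the highest Cre-positive library. The excess rests on noCre replicate 3, with 126 per 100000. Replicates 1 and 2 held 0 of 921 tags together, which allows up to 326 per 100000. For this transcript the part of background in its values was not tested.

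**Figure D4:**
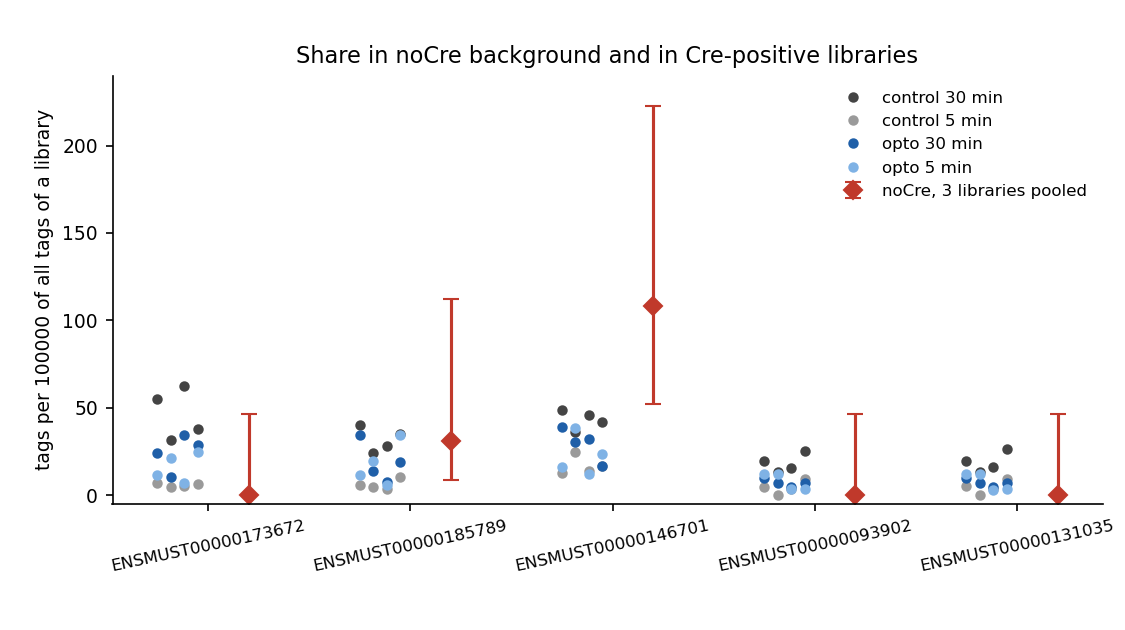
Tags per 100000 of all tags of a library (vertical axis) for each transcript in the 16 Cre-positive libraries, round points coloured by group, and in the 3 noCre libraries pooled, red diamonds; red bars are 95% Wilson intervals where noCre tags were found and reach the limit that 0 tags allow elsewhere. For ENSMUST00000146701 the noCre value, 108, and the lower end of its interval, 52.4, lie above every Cre-positive library.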

How the data were processed

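FMRP CLIP tags were analysed in 16 Cre-positive and 3 noCre libraries. The authors deposited 1 table per library with raw tag counts for each transcript, per the file headers. No table lists a count below 1, and unlisted transcripts were set to 0. The submitters' processing notes name cutadapt, STAR and mm10. Annotation release, duplicate handling and the assignment of tags to isoforms are not given in the sources used here.

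Tests used edgeR 4.0.16 in R 4.3.3 with all 16 Cre-positive libraries in 1 model of 4 group means, TMM scaling, filterByExpr (minimum count 10, minimum total 15), the quasi-likelihood test and Benjamini-Hochberg adjustment over 2871 transcripts, which hold 64.8% to 70.9% of the tags of a library. All 5 members passed this filter, as any called transcript has to. Log2 CPM used a prior count of 2. Alternatives used DESeq2 1.42.0 and limma 3.58.1, and tables and plots Python 3.11.15, pandas 2.3.3, scipy 1.17.1 and matplotlib 3.10.9. Wilson intervals (95%) and limits for 0 (3 tags) cover counting error only. The edgeR function was tested on simulated data.

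The members and lists were chosen with earlier results of these data known. Named are the 5 members, the first transcript outside the threshold, and the 2 with the highest mean correlation with the members. ENSMUST00000082408 and ENSMUST00000143272 were added after their values were seen. The marker lists were not used, because no ID could be matched to a gene.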

Additional observations from a re-analysis of the deposited data

How the results depend on the processing

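The 5 opto changes and 5 control changes were refitted under other scaling, filters, tests and sets of libraries. Of 81 refitted opto changes of single members, 74 kept their direction and their side of the threshold and 1 passed it (ENSMUST00000173672 in limma, given with its values above). Those that changed sign were of ENSMUST00000185789, to a log2 fold change of -0.031 in limma and -0.032 with the replicate block, with -0.43 to 0.49 when single opto libraries were left out, and of the pair, with -0.0025 to 0.72 and -0.062 to 0.72. With depth as a covariate the change of ENSMUST00000185789 went from 0.10 to 0.84 and that of ENSMUST00000146701 from -0.47 to -0.087. Of 83 refitted control changes, 83 kept their direction and 25 no longer passed, 20 of them of the pair.

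The number of transcripts called between the opto times, 7 in the main setting, was 42 with no filter beyond 1 tag, 2 with only transcripts averaging 20 tags or more, 14 in a fit of the opto libraries alone, 36 in DESeq2, 94 in limma, 24 with the replicate block, 0 with depth as a covariate (296 at an unadjusted p under 0.05 in edgeR), 0 of 381 with counts thinned to 20456 tags (56 at an unadjusted p under 0.05 in edgeR), and 0 to 55 when single libraries were left out (opto 5 min replicates 1, 3 and 4 left out in turn gave 0, 2 and 55, and opto 30 min replicates 2, 3 and 4 gave 24, 13 and 0). The number called between the control times, 5, was 3 with DESeq2 size factors, with library totals only, with transcripts averaging 20 tags or more and in DESeq2, 6 with no filter beyond 1 tag, 18 in a fit of the controls alone, 13 in limma, 8 with the replicate block, 9 with depth as a covariate, 0 of 381 when thinned (26 at an unadjusted p under 0.05 in edgeR), and 1 to 9 when single libraries were left out (9 without control 30 min replicate 2). Some of these fits held fewer transcripts or libraries, and the cause of the changed numbers was not tested. The thinned counts left 0 of the 5 members to test, and the filter at 20 tags or the opto libraries alone left 3. The pooled noCre share of ENSMUST00000146701 was 0 to 125 per 100000 when single noCre libraries were left out, and that of ENSMUST00000185789 17.9 to 109.

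Replicate numbers were not treated as pairing libraries in the main fit. With a block for replicate number within time, the changes of opto over control kept their direction for each member, with smaller SEs. For ENSMUST00000185789 they were 1.30 (SE 0.29) at 5 min and -1.10 (SE 0.31) at 30 min on the log2 scale. Deviations of same-numbered libraries correlated at -0.036 to 0.060 between the opto times, -0.21 to 0.16 between the control times, and 0.092 to 0.33 between opto and control of 1 time, where 6 of 8 libraries at each time correlated best with their own number.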
